A study of Homo sapiens with 6 samples.

Results

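The TRIM family was taken from the deposited count table by gene symbol, TRIM followed by a number and at most 1 letter. This gave 71 members among 38167 genes, and 8 of them form a group of their own by position, in or near the HLA region of chromosome 6 (TRIM10, TRIM15, TRIM26, TRIM27, TRIM31, TRIM38, TRIM39 and TRIM40). The members were measured in spheroids of Cal27, an established line from a human squamous carcinoma of the tongue. Spheroids had been grown in stiff gels (12 mg/mL Matrigel, a basement membrane extract) or in soft gels (3 mg/mL Matrigel), in both cases by liquid overlay and for 14 days. There were 3 stiff and 3 soft libraries of polyadenylated RNA, all from the same line. The labels number the 3 libraries of a condition as biological replicates without naming separate cultures, and the p-values below speak only of the spread among these libraries, part of which may be technical.

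TRIM proteins share a tripartite motif of a RING finger, B-boxes and a coiled coil, and most of them are ubiquitin ligases: the RING recruits an E2 enzyme loaded with ubiquitin, and a domain at the other end of the protein selects the substrate. Several members are induced by interferon and tag sensors or adaptors of viral RNA and DNA, some act on viral capsids directly, and others repress transcription, organise the cytoskeleton or turn over muscle proteins. In squamous epithelium the family is known above all for TRIM29, which is abundant in basal keratinocytes.

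The libraries held 35292340, 36526394 and 36594685 counted fragments in stiff spheroids and 40583044, 33470916 and 30656278 in soft spheroids. Stiff and soft libraries separated on the first principal component of log2 CPM (75.1% of the variance), and stiff replicate 2 stood apart from the other stiff libraries on the second (10.8%). Markers of squamous epithelium were abundant in every library, with a summed level of 13820 to 14620 CPM over 6 genes in stiff spheroids and 3853 to 4260 CPM in soft spheroids. Levels are given in CPM, counts scaled to the TMM-adjusted library size, within 1 gene, and in FPKM, the same per kilobase of exon, wherever genes are set beside each other.

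Of the 71 members, 6 had no fragment in any library (TRIM43, TRIM49B, TRIM60, TRIM61, TRIM64C and TRIM77), and 17 more fell below the expression filter, with at most 33 fragments in any library. The remaining 48 were tested. In this cell line 41 members had a mean of at least 1 FPKM over the 6 libraries, and 18 had at least 10. With edgeR's quasi-likelihood test and an adjusted p below 0.05, 15 members were higher and 14 lower in stiff spheroids, and 19 did not pass. The members called made up 60.4% of those tested, beside 49.1% of all 18676 genes (25.3% higher and 23.8% lower). No test was made of the difference between these shares, and some calls were weak, as given below for TRIM6, TRIM13 and TRIM16L. The 3 stiff libraries lay above all soft ones in 17 members and below them in 16, together 33 of 48, beside 30.3% and 29.6% of all genes, together 59.9%. Most differences were small: the median log2 fold change of the tested members was 0.05 with quartiles of -0.29 and 0.33, beside a median of 0.00 with quartiles of -0.34 and 0.37 over all genes. Only TRIM31, TRIM25, TRIM2, TRIM55 and TRIM7 were called with a change of at least 2-fold, a share of 5 of 48, beside 13.2% of all genes. Without stiff replicate 2, 18 members were higher and 16 lower, and without soft replicate 1 or soft replicate 2 the number higher was 10. As these are bulk libraries, fewer cells that express a gene and less of its RNA per cell cannot be told apart.

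**Figure D1:**
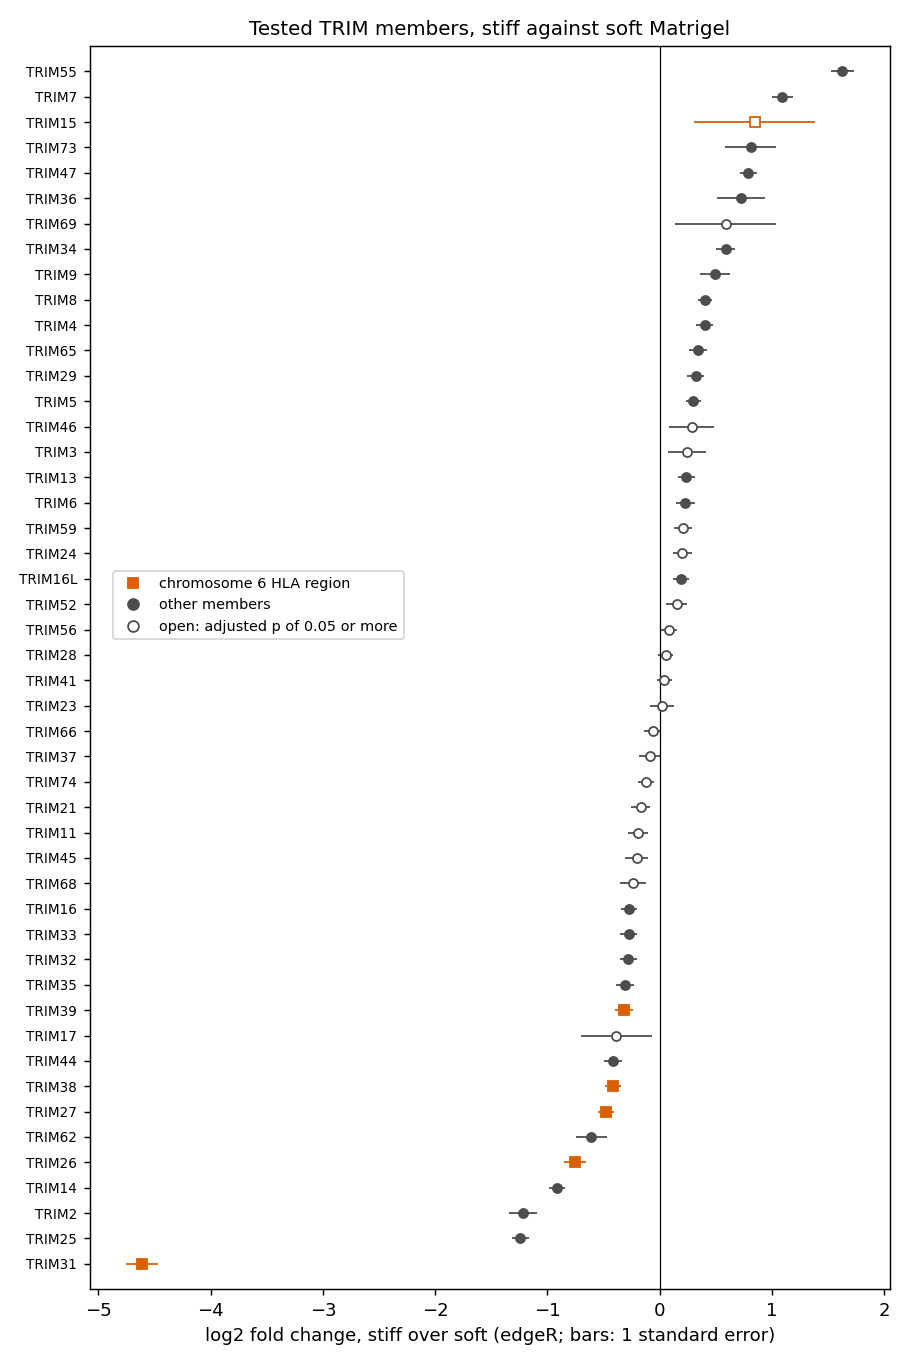
Log2 fold change, stiff over soft, of the 48 tested TRIM members from edgeR, with bars of 1 standard error; squares are members of the chromosome 6 HLA region, circles the other members, and open symbols did not pass an adjusted p of 0.05. TRIM31 lies alone at -4.61, the other members lie between -1.24 and 1.63, and the filled squares are all left of 0.

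The chromosome 6 group differed from the other members in its counts. Of its 8 members 6 were tested, 5 were lower in stiff spheroids, 0 were higher, and TRIM15 did not pass. The other 42 tested members had 15 higher (35.7%) and 9 lower (21.4%), beside 25.3% and 23.8% of all genes. The median log2 fold change was -0.45 in the chromosome 6 group and 0.12 in the other members. Summed over its members, the group had 44.0 FPKM in stiff spheroids and 74.5 FPKM in soft spheroids, while the other 63 members summed to 542 FPKM in stiff spheroids and 552 FPKM in soft spheroids. The group was set by position and with earlier results known, and the difference between the groups of genes was not tested. Other genes within 250000 bp of any of the 8 members did not lean the same way when pooled. Of 36 tested, 9 were higher and 7 lower, with a median of -0.04, beside 25.3% and 23.8% of all genes. This pool includes many histone genes and the surroundings of TRIM27 and TRIM38, which lie apart from the other members. It leaves out genes with a TRIM name, such as TRIM31-AS1, which was lower, and TRIM39-RPP21, which did not pass. The surroundings of single members were not tested.

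TRIM31 (chromosome 6, 30102897 to 30113090, GRCh38.p14) is a RING ligase of gut and other epithelia that ubiquitinates the antiviral adaptor MAVS and the inflammasome sensor NLRP3. It had 0.725, 1.09 and 0.943 CPM in stiff spheroids, against 22.0, 23.9 and 21.8 CPM in soft spheroids. All stiff libraries were near the floor and the groups did not overlap. In fragments this was 98 over the 3 stiff libraries and 2410 over the 3 soft libraries, and the ratio of soft to stiff, after scaling for library size, was 24.5 (Clopper-Pearson 95% interval 19.99 to 30.3, counting error only). The fitted change was 24.4-fold lower in stiff spheroids, a log2 fold change of -4.61 ± 0.14 (SE, edgeR adjusted p = 2.97e-08). Per length TRIM31 averaged 0.450 FPKM in stiff spheroids and 11.1 FPKM in soft spheroids. On the scale of log2(TPM + 1) the difference was -2.90, since the added 1 exceeds much of the level in stiff spheroids. TRIM31-AS1, the antisense transcript of the locus, also fell, with 0.189 ± 0.037 CPM in stiff and 2.09 ± 0.30 CPM in soft spheroids (SD, n = 3 each; 10.9-fold lower, edgeR adjusted p = 8.52e-06), and fragments of overlapping partners may not have been told apart.

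TRIM26, which acts on the interferon regulator IRF3 in the nucleus, lies further along chromosome 6 (30184455 to 30213406). It had 50.02, 40.4 and 52.1 CPM in stiff spheroids, against 83.8, 78.0 and 78.8 CPM in soft spheroids. Stiff replicate 2 was the lowest library, and every stiff library lay below every soft one. TRIM26 fell 1.69-fold (log2 fold change -0.76 ± 0.10, SE, edgeR adjusted p = 0.000147).

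TRIM27, a transcriptional repressor and ligase first found in a RET fusion, had 52.6, 58.1 and 60.5 CPM in stiff spheroids, against 80.2, 81.1 and 76.9 CPM in soft spheroids. TRIM38, an interferon-inducible brake on Toll-like receptor signalling, had 55.1, 60.2 and 58.0 CPM in stiff spheroids, against 75.3, 80.3 and 76.0 CPM in soft spheroids. In both genes the groups were clearly apart, and the falls were 1.39-fold and 1.34-fold (edgeR adjusted p = 0.000502 and 0.000738, in that order). TRIM39, which stabilises the apoptosis factor MOAP1, had 16.8, 17.4 and 17.1 CPM in stiff spheroids, against 21.5, 20.3 and 22.1 CPM in soft spheroids, and was 1.25-fold lower (edgeR adjusted p = 0.00794). The value of TRIM39 is uncertain because the readthrough gene TRIM39-RPP21, which did not pass (adjusted p = 0.666), covers 29.5% of its exons and the opposite-strand HCG18, which was 2.23-fold lower, covers 12.2%.

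The last members of the group were hardly expressed. TRIM15, a focal adhesion protein, had 0.145, 0.673 and 0.554 CPM in stiff spheroids, against 0.241, 0.176 and 0.354 CPM in soft spheroids. The groups overlapped through stiff replicate 1, and the log2 fold change of 0.85 ± 0.54 did not pass (SE, edgeR adjusted p = 0.218), whereas without that library the adjusted p was 0.0374. TRIM10, known from red cell precursors, had 0.029, 0.0561 and 0.0832 CPM in stiff spheroids, against 0.0481, 0.147 and 0.225 CPM in soft spheroids (6 fragments in stiff and 14 in soft). TRIM40, known from the gut, had 1 fragment in stiff spheroids, in replicate 2, and 2 in soft spheroids, both in replicate 1. Both genes were too low to test. Whether the alternate haplotypes of the HLA region were part of the alignment index is not given in the sources used here, and its effect on these members was not tested.

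**Figure D2:**
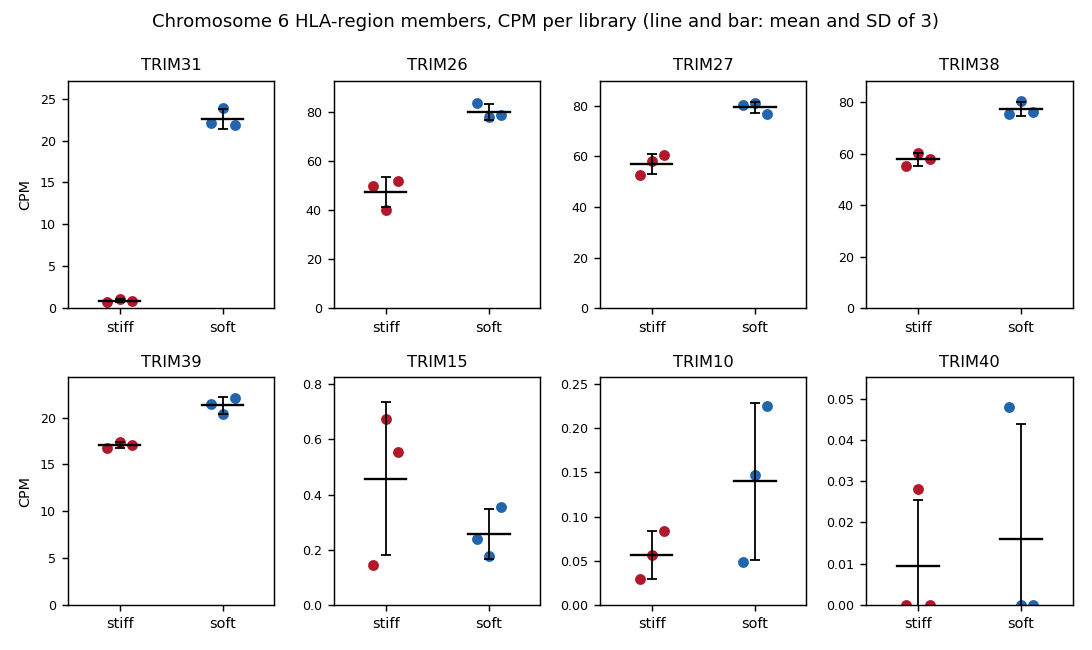
CPM of the 8 members of the chromosome 6 HLA region in each library, stiff left and soft right, each panel with its own axis from 0; dots are libraries, lines and bars are the mean and SD of 3. TRIM31, TRIM26, TRIM27, TRIM38 and TRIM39 are lower in every stiff library than in any soft one, while TRIM15, TRIM10 and TRIM40 overlap at under 1 CPM.

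Among members with roles in innate immunity and viral restriction, all 15 outside the chromosome 6 group were expressed and tested. Chromosome 6 members were grouped by position and are not counted here. They include TRIM31, TRIM26 and TRIM38, which were given such roles above and were all lower in stiff spheroids. Of the 15, 7 were higher (46.7%) and 4 lower (26.7%) in stiff spheroids, beside 25.3% and 23.8% of all genes. The largest changes among the 15 were falls, in TRIM25 and TRIM14. TRIM25, which attaches ubiquitin to the RNA sensor RIG-I and ISG15 to many proteins, had 84.8, 78.9 and 90.9 CPM in stiff spheroids, against 204, 203 and 194 CPM in soft spheroids. No library came near the other group, and TRIM25 was 2.36-fold lower (log2 fold change -1.24 ± 0.07, SE, edgeR adjusted p = 8.88e-07). TRIM14, a member without a RING that works as an adaptor beside MAVS, had 101, 97.3 and 113 CPM in stiff spheroids, against 194, 197 and 198 CPM in soft spheroids, and was 1.89-fold lower (edgeR adjusted p = 5.9e-06). TRIM44, which carries a zinc finger of deubiquitinases in place of a RING, had 435, 365 and 444 CPM in stiff spheroids, against 571, 537 and 553 CPM in soft spheroids. Its groups were apart although stiff replicate 2 was lower than the other stiff libraries, and the fall was 1.33-fold (edgeR adjusted p = 0.00225). TRIM35, a ligase reported to act on IRF7, had 19.5, 19.99 and 20.7 CPM in stiff spheroids, against 26.2, 24.3 and 24.0 CPM in soft spheroids. Its groups did not overlap, and it was 1.24-fold lower (adjusted p = 0.00897), a call that was lost without soft replicate 1 (0.0536).

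The 7 higher members of this role changed by 1.17-fold to 1.503-fold. TRIM34, a close relative of the retroviral restriction factor TRIM5, had 16.7, 15.8 and 17.02 CPM in stiff spheroids, against 10.9, 11.3 and 10.7 CPM in soft spheroids, and was 1.503-fold higher (edgeR adjusted p = 0.000389). TRIM8, a ligase that promotes NF-kappaB signalling and binds SOCS1, had 98.3, 104 and 98.1 CPM in stiff spheroids, against 74.4, 76.9 and 75.3 CPM in soft spheroids, and was 1.32-fold higher (adjusted p = 0.000535). In both genes the libraries of a condition lay close together and the conditions did not overlap. TRIM4, a ligase for RIG-I, had 52.8, 53.3 and 50.6 CPM in stiff spheroids, against 37.7, 38.2 and 42.7 CPM in soft spheroids. TRIM65, a ligase for the RNA sensor MDA5, had 27.2, 29.6 and 27.1 CPM in stiff spheroids, against 22.9, 21.9 and 21.5 CPM in soft spheroids. TRIM5 itself had 50.6, 48.8 and 49.8 CPM in stiff spheroids, against 41.6, 39.8 and 39.7 CPM in soft spheroids. In these 3 genes every stiff library lay above every soft one, and TRIM4 was 1.32-fold higher (0.00164), TRIM65 1.27-fold higher (0.00502) and TRIM5 1.23-fold higher (0.0043), all by adjusted p in edgeR; with limma on log2(TPM + 1), TRIM65 (0.0797) and TRIM5 (0.169) did not pass. TRIM13, anchored in the endoplasmic reticulum, had 37.8, 40.8 and 37.9 CPM in stiff spheroids, against 31.7, 34.2 and 32.9 CPM in soft spheroids. TRIM6, which makes free ubiquitin chains, had 28.1, 24.6 and 26.0 CPM in stiff spheroids, against 21.9, 22.3 and 22.9 CPM in soft spheroids. The conditions did not overlap in either gene but lay close, with TRIM13 1.18-fold higher (adjusted p = 0.0224) and TRIM6 1.17-fold higher (0.0381). These last 2 calls are weak: TRIM13 lost its call without any 1 of the soft libraries (adjusted p between 0.0511 and 0.109), and TRIM6 without any 1 library other than stiff replicate 2 (0.0748 to 0.142). TRIM34 and TRIM6 share the readthrough gene TRIM6-TRIM34, which was itself 1.27-fold higher (edgeR adjusted p = 0.0188). It covers 83.0% of the exons of TRIM34 and 29.3% of those of TRIM6. Fragments may therefore be split between these genes or counted in more than 1 of them, and their changes may not be separate.

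TRIM56, TRIM21, TRIM23 and TRIM68 did not pass. TRIM56, which assists sensing of double-stranded RNA and DNA, was the most abundant of them, with 264, 283 and 250 CPM in stiff spheroids, against 252, 249 and 251 CPM in soft spheroids (edgeR adjusted p = 0.324). TRIM21, the cytosolic antibody receptor, averaged 31.5 ± 2.5 CPM in stiff spheroids and 35.4 ± 2.0 CPM in soft spheroids (SD, n = 3 each; adjusted p = 0.122, and 0.00725 without stiff replicate 2). TRIM23 averaged 16.2 CPM in stiff and 15.9 CPM in soft spheroids, and TRIM68 13.4 CPM in stiff and 15.8 CPM in soft spheroids.

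**Figure D3:**
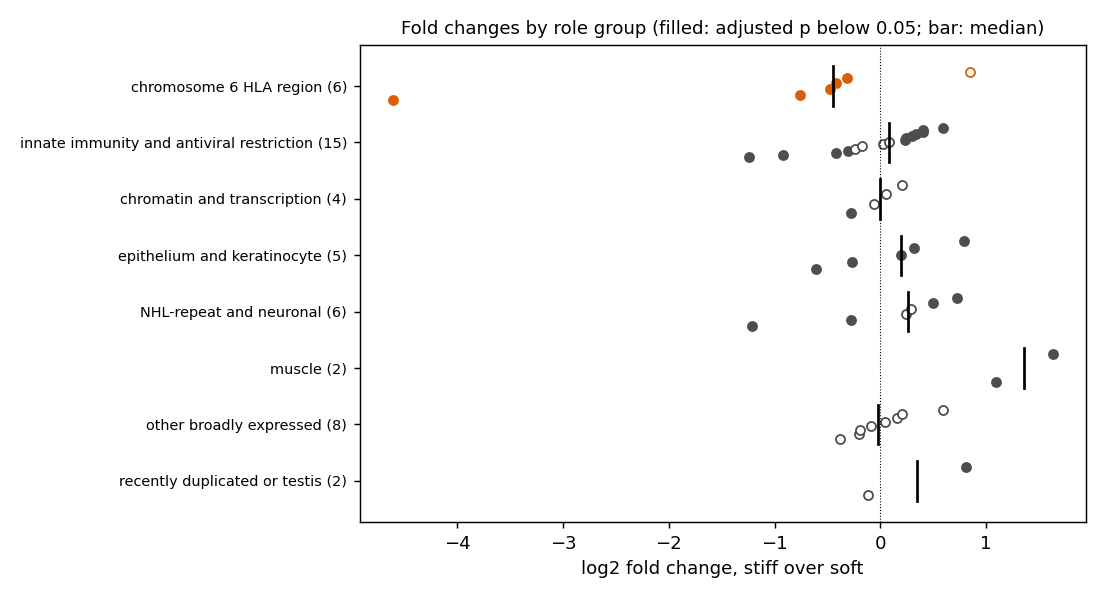
Log2 fold change, stiff over soft, of each tested member by role group, with the number tested in brackets; filled dots passed an adjusted p of 0.05 and the bar is the group's median. The chromosome 6 group has a median of -0.45 with 5 filled dots left of 0. The innate immunity group, which leaves out the chromosome 6 members, spreads to both sides around 0.08. None of the 8 dots of the group labelled other broadly expressed is filled.

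Members linked to epithelium and keratinocytes were all expressed, and all 5 were called, 3 higher and 2 lower, beside 49.1% called over all genes. TRIM29, a RING-less member of basal squamous epithelium that binds keratins, had 508, 425 and 491 CPM in stiff spheroids, against 383, 375 and 382 CPM in soft spheroids. Stiff replicate 2 was the stiff library closest to the soft ones, the groups did not overlap, and TRIM29 was 1.25-fold higher (edgeR adjusted p = 0.00634). On deposited TPM with limma the call was lost (adjusted p = 0.184 with 1 added to each TPM). TRIM47 had 40.9, 41.5 and 37.2 CPM in stiff spheroids, against 22.7, 23.4 and 23.1 CPM in soft spheroids, and was 1.73-fold higher (adjusted p = 2.28e-05), with 51.5% of its exons covered by an opposite-strand transcript. TRIM62, which keeps epithelial cells polarised, had 9.19, 6.76 and 9.79 CPM in stiff spheroids, against 12.6, 13.7 and 12.9 CPM in soft spheroids, and was 1.52-fold lower (adjusted p = 0.00447). The squamous markers KRT5 and KRT14, basal keratins, moved further than TRIM29: of the 6 markers 4 were higher and 2 (EPCAM and CDH1) lower, KRT14 was 6.28-fold and KRT5 3.29-fold higher in stiff spheroids (adjusted p = 7.06e-08 and 2.2e-07), and their part in the result for TRIM29 was not tested. TRIM16, a regulator of keratinocyte differentiation, was 1.21-fold lower (adjusted p = 0.00947), and TRIM16L, its truncated near-copy on the same chromosome, 1.14-fold higher (0.0417). How fragments that match both were assigned is not given in the sources used here, so the opposite signs of TRIM16 and TRIM16L are uncertain, and TRIM16L lost its call without any 1 library other than stiff replicate 2 (0.0769 to 0.166).

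The muscle group held the largest rises. TRIM55, also called MuRF2, a ligase of the sarcomere, had 19.4, 21.9 and 20.4 CPM in stiff spheroids, against 7.22, 6.54 and 6.17 CPM in soft spheroids. The lowest stiff library was far above the highest soft one, and TRIM55 was 3.09-fold higher (log2 fold change 1.63 ± 0.10, SE, edgeR adjusted p = 1.43e-06). TRIM7, which binds glycogenin, the protein that primes glycogen synthesis, had 32.9, 36.1 and 30.4 CPM in stiff spheroids, against 14.5, 15.4 and 16.6 CPM in soft spheroids, and was 2.14-fold higher (adjusted p = 1e-05). Its antisense gene TRIM7-AS1 was 2.09-fold higher (adjusted p = 0.000173). The sarcomeric relatives of TRIM55 were nearly silent: TRIM63 (MuRF1) had 6 fragments in stiff and 12 in soft spheroids, TRIM54 (MuRF3) 15 in stiff and 2 in soft spheroids, and TRIM72, a membrane repair protein of muscle, 51 in stiff and 12 in soft spheroids, all below the filter. Of 6 skeletal muscle markers only TTN was tested, MYH2 had no fragment, and their summed level was 18.2 to 29.3 CPM in stiff spheroids and 35.1 to 40.6 CPM in soft spheroids, nearly all of it TTN.

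**Figure D4:**
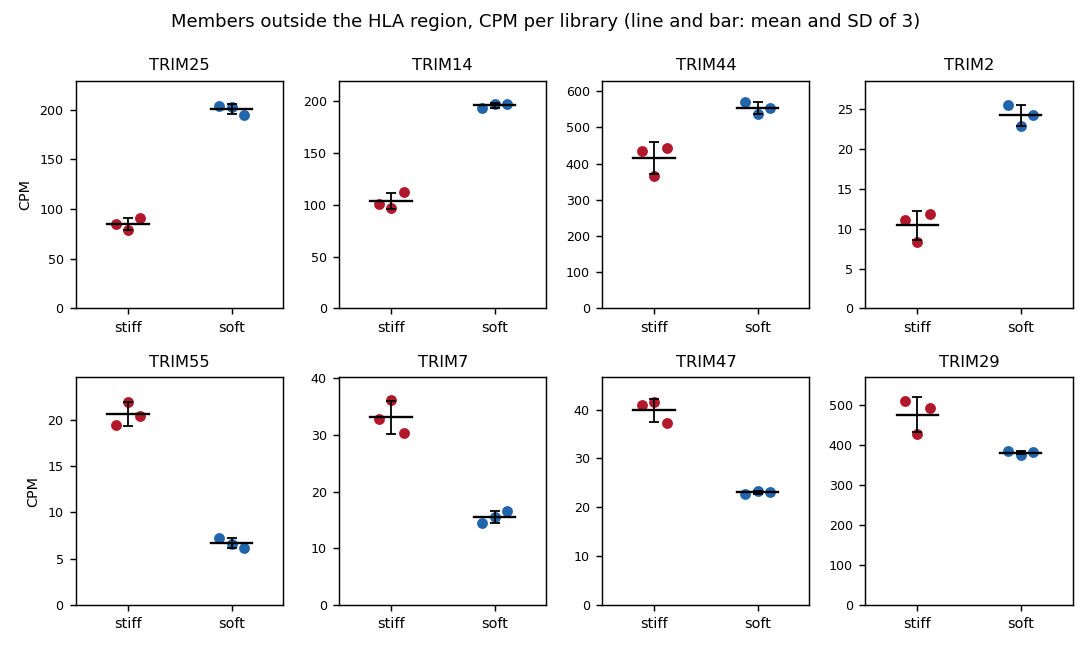
CPM of 8 members outside the HLA region in each library, stiff left and soft right, each panel with its own axis from 0; dots are libraries, lines and bars are the mean and SD of 3. TRIM25, TRIM14, TRIM44 and TRIM2 are lower and TRIM55, TRIM7, TRIM47 and TRIM29 higher in stiff spheroids, with no overlap in any panel.

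Of the members with NHL repeats or known from neurons, 6 were tested. Of these 2 were higher and 2 lower (33.3% each, beside 25.3% and 23.8% of all genes). TRIM2, a ligase for the neurofilament light chain, had 11.1, 8.41 and 11.9 CPM in stiff spheroids, against 25.6, 22.9 and 24.3 CPM in soft spheroids. Every stiff library was under 12 CPM and every soft one above it, and TRIM2 was 2.32-fold lower (log2 fold change -1.21 ± 0.13, SE, edgeR adjusted p = 3.47e-05). TRIM32, the ligase affected in a limb girdle muscular dystrophy, was 1.21-fold lower (adjusted p = 0.011), with 32.9, 30.0 and 33.2 CPM in stiff spheroids, against 38.2, 38.6 and 39.7 CPM in soft spheroids. TRIM9, a ligase of axon branching, had 10.1, 7.65 and 9.45 CPM in stiff spheroids, against 6.76, 5.77 and 6.82 CPM in soft spheroids. Stiff replicate 2 came near the soft libraries, and TRIM9 was 1.41-fold higher (adjusted p = 0.0127, and 0.0592 without soft replicate 2), and TRIM36 1.66-fold higher at only 1.67 ± 0.11 CPM in stiff spheroids and 1.01 ± 0.14 CPM in soft spheroids (SD, n = 3 each; 0.0174, and 0.0595 and 0.0682 without soft replicates 1 and 2). TRIM46, which marks the axon initial segment, did not pass (0.271), nor did TRIM3 (0.26), which passed without stiff replicate 2 (0.00511). TRIM67 and TRIM71 fell below the filter.

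The chromatin group held the member with the highest level and hardly moved. TRIM28 (KAP1), the corepressor that KRAB zinc finger proteins recruit to silence repeats, averaged 87.2 FPKM in stiff spheroids and 83.9 FPKM in soft spheroids. It had 251, 274 and 250 CPM in stiff spheroids, against 249, 254 and 242 CPM in soft spheroids. The groups overlapped, and the log2 fold change of 0.06 ± 0.07 did not pass (SE, edgeR adjusted p = 0.511); its sign turned with library size scaling (-0.001) and on deposited TPM (-0.06). Its relatives of the TIF1 family differed little. TRIM33, which acts on SMAD4, was 1.21-fold lower (adjusted p = 0.0109, and 0.0607 without soft replicate 1), with 65.1 ± 2.4 CPM in stiff spheroids and 78.8 ± 5.2 CPM in soft spheroids (SD, n = 3 each). TRIM24 did not pass at 26.4 CPM in stiff and 22.9 CPM in soft spheroids (adjusted p = 0.0714, and 0.0124 without stiff replicate 2), nor did TRIM66 at 52.8 CPM in stiff and 55.2 CPM in soft spheroids (0.523).

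Of the group labelled other broadly expressed, 8 were tested and 0 passed in edgeR, beside 49.1% of all genes. They were TRIM11, TRIM17, TRIM37, TRIM41, TRIM45, TRIM52, TRIM59 and TRIM69. Their log2 fold changes lay between -0.39 and 0.59. The label does not hold here for TRIM17 and TRIM69, which averaged only 1.15 and 0.364 CPM over all libraries. Their standard errors were wide (0.32 and 0.45 in log2). The ligase TRIM11 had 50.2, 61.3 and 50.7 CPM in stiff spheroids, against 61.2, 61.8 and 62.2 CPM in soft spheroids. Stiff replicate 2 sat with the soft libraries, and the adjusted p was 0.0943 with it and 0.000209 without it (log2 fold change -0.29). TRIM52 passed without the same library (0.0065). TRIM59 came closest to the threshold with all libraries (edgeR adjusted p = 0.0513), but 19.8% of its exons are covered by SMC4, which lies on the opposite strand and was 1.39-fold higher. The readthrough gene TRIM59-IFT80 went the other way and was 1.76-fold lower (edgeR adjusted p = 5.25e-05), with 36.9 CPM in stiff and 64.9 CPM in soft spheroids. How much of TRIM59 it covers is not given here. TRIM58 had 3 fragments in all libraries together, 2 of them in stiff spheroids and 1 in soft spheroids.

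The recently duplicated and testis members were almost all silent: 15 of 17 fell below the filter. TRIM74 had 46.1 ± 1.4 CPM in stiff spheroids and 50.1 ± 2.6 CPM in soft spheroids (SD, n = 3 each) and did not pass (edgeR adjusted p = 0.192), and TRIM73 had 2.35, 2.75 and 1.94 CPM in stiff spheroids, against 1.03, 1.49 and 1.51 CPM in soft spheroids, and was 1.75-fold higher (adjusted p = 0.0138, and 0.0634 without soft replicate 1). TRIM73, TRIM74 and TRIM50 are near-identical copies on chromosome 7, so the split of fragments between them is uncertain; TRIM50 had 21 fragments in stiff and 11 in soft spheroids. TRIM42, TRIM43B, TRIM48, TRIM49, TRIM49C, TRIM51, TRIM64 and TRIM64B had at most 3 fragments in either condition.

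Levels per length spread over more than 2 orders of magnitude among the tested members. After TRIM28 came TRIM29, with 88.4 FPKM in stiff spheroids and 70.8 FPKM in soft spheroids, then TRIM44 with 32.0 FPKM in stiff and 42.7 FPKM in soft spheroids, and TRIM14 with 21.3 FPKM in stiff and 40.2 FPKM in soft spheroids. TRIM74 is left out of this order because its share of the fragments of its near-copies is uncertain. It had 31.4 FPKM in stiff and 34.1 FPKM in soft spheroids, on merged exons of only 1471 bp. By deposited TPM it stood at rank 36 of the members, but it has 11 RefSeq transcripts, and the limit of TPM given below applies to that rank. In stiff spheroids alone TRIM28 and TRIM29 were level within the spread of the libraries. The deposited TPM values were not used to set genes beside each other, because the length they divide by rose with the number of RefSeq transcripts of a gene: relative to genes with 1 transcript, it was 1.89 times longer per base of merged exon for genes with 2 and 4.34 times longer for genes with 5. TRIM26, for example, averaged 5.67 TPM in stiff spheroids beside 76.0 TPM for TRIM27, although their FPKM were 13.4 and 19.2.

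**Figure D5:**
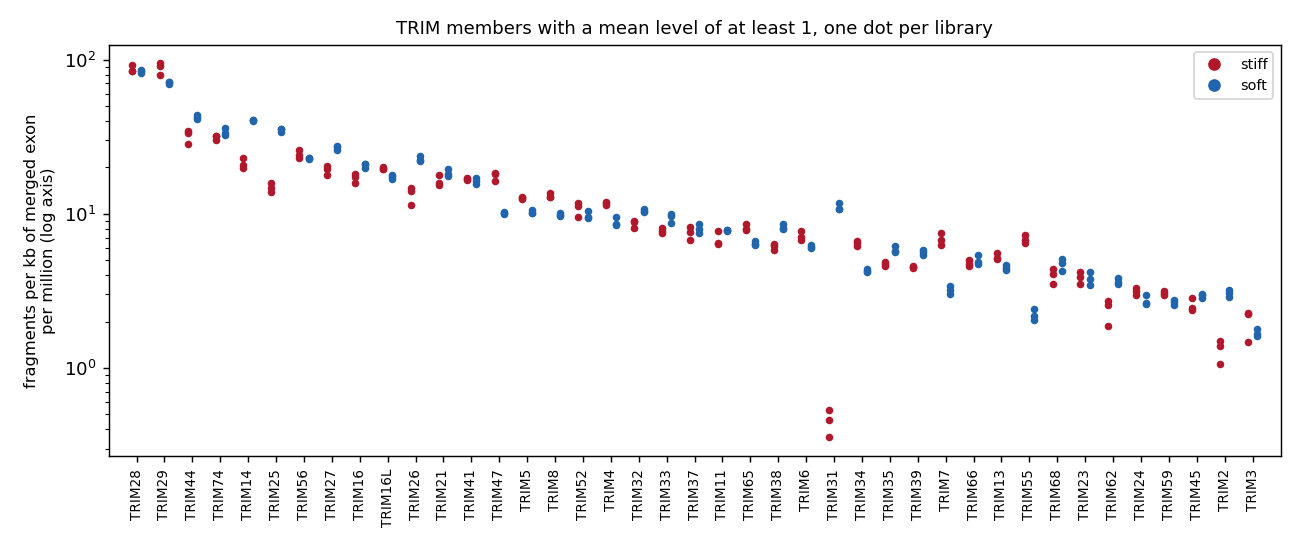
FPKM (log axis) in each library of the members with a mean of at least 1 FPKM, ordered by that mean; each dot is a library, stiff left of soft. TRIM28 and TRIM29 lead, and TRIM31 is the member whose stiff libraries drop below 1 FPKM, with a mean of 0.450 FPKM in stiff and 11.1 FPKM in soft spheroids.

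Of the 6 clusters of neighbouring members with at least 2 tested, 2 were called in 1 direction throughout. On chromosome 11 the adjacent TRIM5, TRIM6 and TRIM34 were all higher in stiff spheroids, and on chromosome 17 so were the neighbours TRIM47 and TRIM65. Within 30102897 to 30343729 on chromosome 6, 3 of the 4 tested members (TRIM31, TRIM26 and TRIM39) were lower. On chromosome 5 TRIM7 was higher, while TRIM41 and TRIM52 beside it did not pass, and neither TRIM11 and TRIM17 on chromosome 1 nor TRIM21 and TRIM68 on chromosome 11 passed. Shared readthrough and overlapping fragments, described above for TRIM6 and TRIM34, were not told apart from separate changes of the genes.

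The promoters were read for the interferon-stimulated response element, since several members are textbook interferon targets. RefSeq promoter sequences (GRCh38.p14, 250 bases before to 50 after the start the table uses) were at hand for 56 of the 71 members. In 6 of them that start lies inside the gene's outer RefSeq start, by 5057 bases in TRIM34 and 1360 in TRIM16, which both hold a match. The core of this element, sought on both strands, was present in 10 of the 56 (17.9%) and in 3.65% of all 27305 promoters of the same length. Among tested members with a sequence it was found in 5 of 12 that were lower in stiff spheroids, 2 of 9 that were higher and 2 of 15 that did not pass; for windows at the outer start these were 4 of 11, 1 of 7 and 2 of 14. The sites of the members the results turn on follow, read 5′ to 3′ on the strand of the gene with the core in capitals and 10 bases on each side; cores that begin with TTTC lie on the other strand.
TRIM26: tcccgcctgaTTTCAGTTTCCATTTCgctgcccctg
TRIM14: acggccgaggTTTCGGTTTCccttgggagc
TRIM2: aataaatagaGAAAAGGAAAtaagccgaag
TRIM44: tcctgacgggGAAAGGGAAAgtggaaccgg
TRIM5: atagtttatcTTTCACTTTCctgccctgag
TRIM34: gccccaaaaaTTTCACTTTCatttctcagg
TRIM21: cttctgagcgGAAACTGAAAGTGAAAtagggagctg

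In TRIM26 (chr6:30213575-30213610, minus strand) and TRIM21 (chr11:4393660-4393695, minus strand) a pair of overlapping cores was found. The core began 26 bases before the start of TRIM14 (chr9:98119229-98119258, minus strand), 35 before that of TRIM44 (chr11:35662730-35662759, plus strand) and 217 before that of TRIM2 (chr4:153151936-153151965, plus strand). TRIM5 (chr11:5685082-5685111, minus strand) and TRIM34 (chr11:5624901-5624930, plus strand) hold the same core, TTTCACTTTC, and both were higher in stiff spheroids, while TRIM14 and TRIM26 were lower, so a core was found beside changes in either direction. Of all tested genes with a sequence, 4.25% of those called lower and 2.67% of those called higher held the core. The members with the largest falls, TRIM31 and TRIM25, had no exact match to the core in their windows, and near matches were not sought. The STAT palindrome TTCNNNGAA was in 10 of the 56 members' windows and 7.88% of all promoters, and in 4 of the 36 of tested members. A match is a description of the letters and not evidence of binding.

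The promoter window of TRIM31 (chr6:30113041-30113340, minus strand) is printed because TRIM31 changed more than any other tested member. It holds no exact match to the core on either strand. Cores with a changed letter or another spacing were not sought.
TRIM31: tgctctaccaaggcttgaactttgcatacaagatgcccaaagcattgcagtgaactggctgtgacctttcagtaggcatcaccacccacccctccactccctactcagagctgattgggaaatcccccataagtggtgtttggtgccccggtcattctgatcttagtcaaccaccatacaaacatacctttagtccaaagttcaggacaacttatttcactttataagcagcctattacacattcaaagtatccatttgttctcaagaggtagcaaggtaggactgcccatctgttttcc

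Genes that work with TRIM proteins were counted in the same fit. Of 35 interferon-induced effectors tested, 26 were lower and 7 higher in stiff spheroids, with a median log2 fold change of -0.70. Among the members, TRIM25, TRIM14, TRIM26 and TRIM38 fell, TRIM5 and TRIM34 rose, and TRIM21 and TRIM56 did not pass. XAF1, an interferon-induced promoter of cell death, was 3.83-fold lower (adjusted p = 4.06e-07) and MX2, a restriction factor of the nuclear pore, 3.03-fold lower (2.26e-06). Among 20 genes of RNA and DNA sensing, 9 were lower (45.0%) and 3 higher (15.0%). The number higher was 6 without stiff replicate 2, and 1 without any 1 of the soft libraries. IKBKE, the kinase IKK-epsilon, was 3.01-fold lower and IFIH1, which encodes MDA5, the target of TRIM65, 2.38-fold lower (edgeR adjusted p = 7.32e-07 and 2.45e-06). Of 18 interferon signalling genes, 10 were lower (55.6%) and 3 higher (16.7%), among them the transcription factor IRF1, 1.80-fold lower, and the kinase JAK1, 1.63-fold lower. HLA class I and its peptide supply were mixed, with 3 of 15 higher and 4 lower: the peptide transporter gene TAP2 was 2.04-fold lower, and HLA-E, which lies near TRIM39, 1.596-fold higher.

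The ubiquitin machinery leaned the other way, with 11 of 20 E2 enzymes and ubiquitin genes higher and 2 lower in stiff spheroids. Over all genes 25.3% were higher and 23.8% lower, in this list 55.0% and 10.0%. UBE2E2, an E2 enzyme, was 1.35-fold higher (edgeR adjusted p = 0.00173), and UBE2L6, the E2 enzyme of ISG15 that works with TRIM25, was 1.56-fold lower, with 104.6 ± 4.3 CPM in stiff spheroids and 163 ± 6 CPM in soft spheroids (SD, n = 3 each). The count of 11 was 7 without any 1 of the soft libraries, and that of 2 was 1 without soft replicate 1, soft replicate 2 or stiff replicate 3. Of 12 genes of the TRIM28 corepressor complex, 4 were higher and 3 lower: CBX1, a heterochromatin protein, was 1.46-fold higher and the deacetylase gene HDAC1 1.37-fold lower. Of 6 tested TRIM proteins under other symbols, 3 were lower and 2 higher (1 higher without any 1 library other than soft replicate 3 and stiff replicate 2). RNF207 was 2.11-fold lower and MID1, the ligase affected in Opitz syndrome, 1.56-fold lower, while MEFV, which encodes pyrin, was 3.56-fold higher at 1.295 ± 0.521 CPM in stiff spheroids and 0.369 ± 0.227 CPM in soft spheroids. PML, the scaffold of nuclear bodies, did not pass (adjusted p = 0.287).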

How the data were processed

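Polyadenylated RNA was sequenced with a directional kit (500 ng of total RNA, 10 PCR cycles, paired reads of 61 bp), per the labels' protocols. The submitters' processing notes name STAR 2.6.1e and featureCounts 1.6.2 with the build hg38, after trimming with cutadapt 1.9.1 (through Trim Galore 0.4.2) and checks with FastQC 0.11.7. For the annotation, the strand setting and fragments that fit several genes, the setting is not given in the sources used here. As deposited, counts are whole fragments per gene symbol, not normalized. The deposited TPM values are the authors' own, 1 table per library. The kit marks strand, but TALAM1, antisense to MALAT1, had 92.7% to 94.3% of its counts. Partners that overlap on either strand were therefore taken as not told apart. Overlaps of at least 10% of exons in GENCODE 29 are given above for some genes. Further ones among tested members were in TRIM52 (28.5%), TRIM16 (23.5%), TRIM8 (14.1%) and TRIM13 (13.4%), and with a second partner in TRIM59 (14.5%). Among named pathway genes they were in XAF1 (38.3%), TAP2 (32.3%) and IRF1 (22.0%).

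Libraries were grouped by their labels and compared with edgeR 4.0.16 (R 4.3.3; TMM, default filter, quasi-likelihood F test, Benjamini-Hochberg over 18676 genes, threshold 0.05). CPM use the TMM-scaled library; FPKM are CPM per kilobase of merged GENCODE 29 exons. The members, lists and tests were chosen with earlier results of these data known. Values per library are given for the chromosome 6 members, for the 12 largest rises and 12 largest falls among called members of at least 5 CPM, for the 5 members highest in TPM and for the highest member of each role. From each partner list at most the 4 genes with the smallest p were named, and PML besides. Symbols, positions and promoters came from RefSeq (35495 of 38167 symbols matched, all 71 members). 1 row that matches the symbol pattern is not reported here.

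Every pair of libraries within a condition differed by more than sampling noise (chi-square over its degrees of freedom between 3.39 and 33.4). Counts were simulated for 18676 genes, of which 200 were changed. There edgeR found 60% of those changed 1.5-fold, 72% of those changed 2-fold and 96% of those changed 4-fold. False calls were 6.36% of all calls. In the data 49.1% of tested genes were called, so these shares may not hold for this comparison. Alternatives were DESeq2 1.42.0, other scalings and filters, a robust dispersion, limma 3.58.1 on log2 TPM, a threshold of 0.01, leaving out each library, and a block for the replicate number; the level of members on deposited TPM was added after seeing the data.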

Additional observations from a re-analysis of the deposited data

How the results depend on the processing

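Of the 48 tested members, 11 of the 14 lower, 6 of the 15 higher and 7 of the 19 that did not pass kept their side of the threshold and their direction under all 18 alternatives that could be computed for them; TRIM31, TRIM25, TRIM14, TRIM26, TRIM27 and TRIM38 were among the 11. The count of lower members in the chromosome 6 group was 5 under every alternative, and that of higher members 0, apart from 1 without stiff replicate 1 (range over libraries left out 0 to 1). Higher calls were fewer with limma on deposited TPM: over all genes 2831 with log2(TPM + 0.1), 2880 with log2(TPM + 1) and 3138 without a TPM filter; among the members, all outside chromosome 6, 7, 7 and 8, beside 15 lower; among partner and pathway genes 20, 20 and 19. At an adjusted p below 0.01, 9 members and 21 partner and pathway genes were higher. The share of higher calls among the members was 51.7% in the main test, 42.9% with library size scaling and 31.8% with limma on log2(TPM + 1), and over all genes 51.5%, 44.7% and 41.3%. The median of all genes moved to -0.111 with log2(TPM + 0.1); there the medians were -0.0813 for the members, -0.590 for the chromosome 6 group and -0.0439 for the other members. With log2(TPM + 1) they were -0.0706, -0.585 and -0.0435, and without a TPM filter the members' median was -0.0376 and that of the other members 0.0170. The chromosome 6 median was -0.602 in DESeq2 and -0.619 without a count filter, fits that also take in TRIM10 and TRIM40. Signs turned for 4 members that did not pass. TRIM28 was at -0.00145 with library size scaling, -0.0579 with log2(TPM + 0.1) and -0.0576 with the other limma fits. TRIM23 was at -0.0338, -0.0813 and -0.0706 in the same order, and between -0.0491 and 0.0868 with a library left out. TRIM41 was at -0.0134, -0.0697 and -0.0642, and TRIM56 at -0.0298 and -0.0294 in the limma fits. The cause of these moves was not tested. With the replicate number as a block, 17 members were higher and 16 lower, with no call lost and TRIM11, TRIM24, TRIM59 and TRIM68 gained. Over all genes 10206 were called with the block, beside 9171 in the main test. Same-numbered libraries correlated in their deviations at 0.073, 0.216 and 0.050, which does not decide whether they were paired. The labels do not say that the replicate number marks a shared day, so it was not taken to pair the libraries. With 3 libraries a condition, edgeR recovered 60% of simulated 1.5-fold changes; among members that did not pass, the standard errors of the low-count TRIM15 (0.54), TRIM69 (0.45) and TRIM17 (0.32) were the widest.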
